A study of Mus musculus with 36 samples.

Results

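Immediate early genes were examined as a set of 10 members: Fos, Fosb, Junb, Egr1, Egr2, Egr3, Egr4, Arc, Nr4a1 and Npas4. They were taken as a named list of activity-induced genes, without use of their values, from 24631 gene symbols listed in VNO and OB and 24634 in MOE. The libraries were made from 3 olfactory tissues of C57BL/6 mice aged 6 months. The MOE (main olfactory epithelium) holds the olfactory sensory neurons, the VNO (vomeronasal organ) holds the vomeronasal sensory neurons, and the OB (olfactory bulb) is the brain region that receives the axons of both. From weaning at 3 weeks, mice lived 4 to a cage under 1 of 2 housings. Sex-separated mice shared a cage with their own sex, in rooms of that sex, and are called SF (females) and SM (males). Sex-combined mice lived as 2 females with 2 males and are called CF (females) and CM (males), and their litters were removed within a day of birth. Each of the 12 combinations of tissue and group had 3 libraries, 36 in all. Each library was a pool of RNA from several mice (2 per the labels, more per the study's methods), prepared after depletion of ribosomal RNA. CF and CM mice can come from the same cages. No stimulus, handling or time of day before tissue collection was given for any group in the sources used here, so the values are levels in mice taken from their cages.

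Immediate early genes are transcribed within minutes of a stimulus, from transcription factors already present in the cell, and their transcripts are short-lived. Calcium entry and kinase signalling in an active neuron act on CREB, which binds cyclic AMP response elements, and on SRF with its partners, which bind CArG boxes. In olfactory research, Fos, Egr1 and Arc in particular serve as markers of sensory neurons and bulb neurons that responded to an odour or pheromone. The same genes also respond to growth factors and to tissue stress in cells other than neurons. By role, Fos, Fosb and Junb encode subunits of the AP-1 transcription factor. Egr1 to Egr4 encode zinc finger transcription factors. Nr4a1 encodes an orphan nuclear receptor. Npas4 encodes a neuron-restricted transcription factor driven by calcium, and Arc encodes a cytoskeleton-associated protein that acts at synapses.

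The sequences just upstream of the transcription starts are shown because each of the 7 members with a window searched here held a cyclic AMP response motif in at least 1 of its windows. RefSeq promoter windows of build GRCm38.p6 were matched for 7 of the 10 members, without Arc, Egr1 and Egr3. For the members, windows on the chromosome of Egr1 were left out of the search, while the whole table kept that chromosome. The 250 bases before the start were searched on both strands for TGACG, the core of a cyclic AMP response element, whose reverse complement is CGTCA. It lay in 9 of the 11 windows of the members (81.8%), against 17.8% of 32851 windows in the whole table. Egr2 had 5 windows, which overlap in part, and held it in 3 of them, and the other 6 members had 1 window each. The CArG box lay in 4 of the 11 windows (36.4%), all of them of Egr2, and in 1.47% of all windows. A match describes the letters only, and the list was chosen for its known induction. For 5 members, positions -240 to -10 from the start are printed. For Egr2 and Npas4, 30 bases around the motifs are printed. Capitals mark TGACG or CGTCA, and in Egr2 also the CArG box.
Fos (chr12:85473650-85473880, plus strand): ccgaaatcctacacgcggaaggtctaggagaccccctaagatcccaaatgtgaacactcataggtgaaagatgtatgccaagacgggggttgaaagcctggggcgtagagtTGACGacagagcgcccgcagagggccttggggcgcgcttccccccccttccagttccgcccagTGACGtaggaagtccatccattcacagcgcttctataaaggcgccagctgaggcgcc
Fosb (chr7:19310055-19310285, minus strand): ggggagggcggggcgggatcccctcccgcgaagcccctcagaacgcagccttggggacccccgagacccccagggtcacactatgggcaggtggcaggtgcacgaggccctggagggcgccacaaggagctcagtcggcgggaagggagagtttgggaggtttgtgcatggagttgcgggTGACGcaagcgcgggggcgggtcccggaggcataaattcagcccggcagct
Junb (chr8:84978758-84978988, minus strand): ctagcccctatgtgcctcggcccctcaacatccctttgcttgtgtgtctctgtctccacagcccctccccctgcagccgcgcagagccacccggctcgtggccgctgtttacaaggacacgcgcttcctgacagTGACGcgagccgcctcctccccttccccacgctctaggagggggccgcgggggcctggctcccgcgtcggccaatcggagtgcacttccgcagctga
Egr4 (chr6:85513599-85513829, minus strand): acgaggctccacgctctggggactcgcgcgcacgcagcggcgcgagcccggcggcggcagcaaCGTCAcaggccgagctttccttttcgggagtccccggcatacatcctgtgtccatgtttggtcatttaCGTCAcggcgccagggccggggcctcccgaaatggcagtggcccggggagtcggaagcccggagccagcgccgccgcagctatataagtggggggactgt
Nr4a1 (chr15:101266606-101266836, plus strand): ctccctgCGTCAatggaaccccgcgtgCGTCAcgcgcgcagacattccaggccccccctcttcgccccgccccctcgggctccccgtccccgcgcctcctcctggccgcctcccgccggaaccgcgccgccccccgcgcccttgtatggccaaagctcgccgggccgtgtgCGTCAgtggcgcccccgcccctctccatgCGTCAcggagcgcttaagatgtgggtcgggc
Egr2 (chr10:67537794-67537823, plus strand): agtCCATATATGGgcagcgaCGTCAcgggt
Npas4 (chr19:4990129-4990158, minus strand): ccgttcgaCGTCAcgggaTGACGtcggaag
Nr4a1 held the most matches, with 4, at positions -233, -213, -69 and -40. In Fos the matches began at -129 and -66, and in Npas4 the pair began at -179 and -169. In Egr2, the CArG box at -72 stood before a match at -55, with a further match at -111 outside the stretch shown.

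Levels are given as FPKM, which counts fragments per kilobase of transcript and scales them to library size, summed over the RefSeq transcripts of a gene. FPKM is scaled to length, so members can be ordered by level. The fragments behind a value were estimated from its confidence limits, and 3 fragments were taken as the floor of detection. The listed values corresponded to 3016524 to 5902159 estimated fragments per library in MOE, 3373400 to 6779893 in VNO and 3592962 to 6437263 in OB. MOE-CM3 was the shallowest library of all, and its genes lay 0.55 log2 units below the median MOE library at the median gene. All 12 libraries of each tissue differed from one another. Checked against defining markers, the labelled tissues held them: summed olfactory sensory neuron markers ran from 1585 to 2831 FPKM in MOE, vomeronasal neuron markers from 86.6 to 113 FPKM in VNO, and bulb neuron markers from 556 to 731 FPKM in OB.

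In OB, all 10 members were expressed in all 12 libraries, and every member was higher in each OB library than in any MOE or VNO library. Among 12690 genes with a mean of at least 0.5 FPKM in OB, 40.9% had all OB libraries above all VNO libraries. That share leaves MOE out. By the mean over 12 libraries, OB exceeded VNO by a ratio of 2.45 for Junb, 2.93 for Egr1, 3.24 for Nr4a1, 3.45 for Fos and 3.67 for Egr3. The ratio was larger for Egr2 (5.02), Fosb (8.78), Npas4 (16.7) and Arc (33.7), against a median of 1.29 over those 12690 genes. The tissue differences are given as a description with no test. For ratios with MOE, the tables of MOE list more entries than those of VNO and OB (40150 against 40008). In bulk tissue, more expressing cells and more RNA per cell cannot be told apart.

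**Figure D1:**
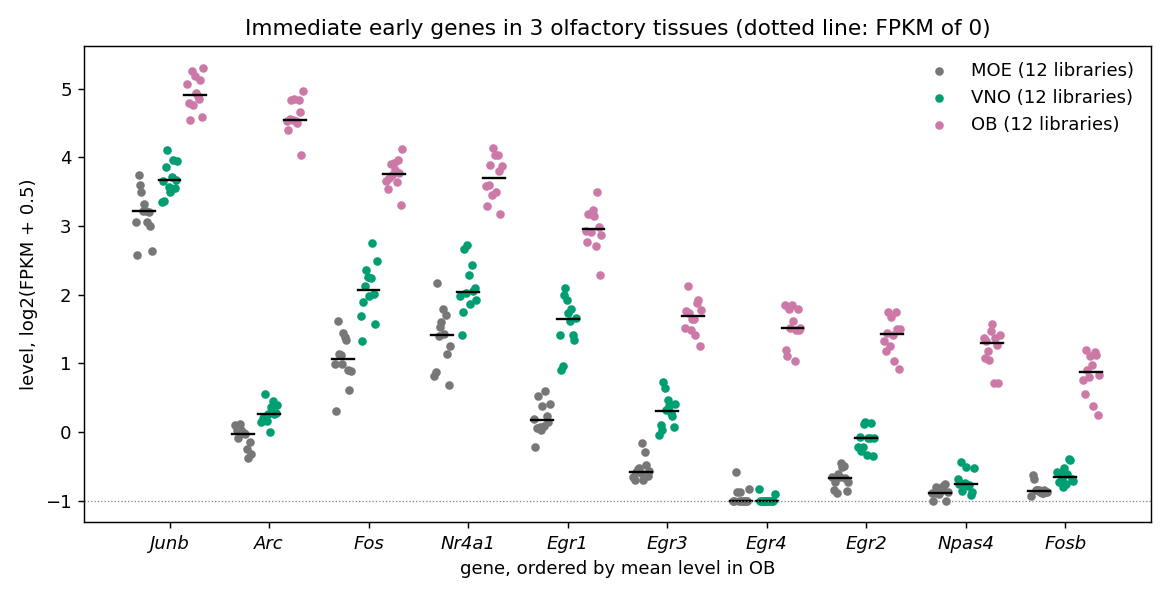
Level of each member, as log2(FPKM + 0.5), in the 12 libraries of MOE, VNO and OB (points), with the median as a black line and genes ordered by their mean in OB. The OB points lie above all MOE and VNO points for each of the 10 genes, and Egr4 sits at the line of 0 FPKM in most MOE and VNO libraries.

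The order of levels differed between tissues. In OB, Junb had the highest mean, 30.7 FPKM (22.8 to 39.1), followed by Arc at 24.1 (15.9 to 30.7), Fos at 13.1 (9.37 to 16.9) and Nr4a1 at 12.8 (8.55 to 17.1). Egr1 stood next at 7.51 (4.37 to 10.8). The ranges of all these neighbours overlapped. Below Egr1 there was a gap that no library crossed, to Egr3 at 2.74 FPKM (1.88 to 3.88). Egr4, Egr2, Npas4 and Fosb followed, with means from 2.41 down to 1.32 and overlapping ranges. The lowest member, Fosb, still rested on 26.7 to 92.5 estimated fragments per library.

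In VNO, Junb was again first, at a mean of 12.6 FPKM (9.65 to 16.7), and did not overlap with Nr4a1 at 3.93 (2.17 to 6.10). Fos followed at 3.81 (2.01 to 6.20) and Egr1 at 2.56 (1.36 to 3.79). Egr1 did not overlap with Egr3 at 0.748 (0.465 to 1.16), and Arc came close to Egr3 at 0.714 (0.502 to 0.971). Arc thus ranked second of 10 in OB and sixth of 10 in VNO. Egr2 had a mean of 0.431 FPKM (0.288 to 0.609), Fosb of 0.151 and Npas4 of 0.111. Egr4 was listed at 0 in 10 of 12 VNO libraries and was under the floor in all 12.

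In MOE, Junb led with a mean of 8.79 FPKM (5.47 to 12.8). Nr4a1 had a mean of 2.19 (1.11 to 3.996), Fos of 1.65 (0.730 to 2.57) and Egr1 of 0.670 (0.358 to 1.01). The remaining members were lower: Arc had a median of 0.483 FPKM, Egr3 of 0.171 and Egr2 of 0.131. Fosb was under the floor in 10 of 12 libraries, Npas4 in 7 and Egr4 in 12. VNO libraries lay above all MOE libraries for Egr1, Egr2 and Egr3, by mean ratios of 3.82, 3.33 and 3.88. Among 13690 genes with a mean of at least 0.5 FPKM in VNO, 21.6% had all VNO libraries above all MOE libraries. Egr2 was under that mean and is not among these genes.

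For comparisons of sex and housing, genes with a mean of at least 0.5 FPKM in a tissue were tested with limma on log2(FPKM + 0.5), and a gene was called at a Benjamini-Hochberg adjusted p under 0.05 over all genes tested. This left 10 members in OB, 6 in VNO (Egr2, Egr4, Fosb and Npas4 dropped out) and 4 in MOE (Junb, Nr4a1, Fos and Egr1). The filter used the mean over all 12 libraries of a tissue and no group. Libraries were pools labelled as separate samples, and p-values measure the spread between pools.

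Across the 3 tissues and 5 comparisons of sex and housing, the only member called was Egr1 (RefSeq NM_007913), in VNO, where it was lower in SF than in SM. In SF, Egr1 measured 2.16, 1.36 and 1.44 FPKM. In SM it measured 3.48, 3.79 and 3.29 FPKM. The SF libraries were thus all below the SM libraries, and they were also the lowest of the tissue apart from an overlap of SF1 with the CM group. In CF, Egr1 measured 2.82, 2.57 and 2.97 FPKM, and in CM 2.17, 2.03 and 2.67 FPKM. These values rested on 71.5 to 167 estimated fragments per library.

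The log2 difference of Egr1 between SF and SM was -0.92 (SE 0.13, 95% confidence interval -1.21 to -0.63; limma adjusted p = 0.029). The means were 1.65 ± 0.44 FPKM (SD, n = 3) in SF and 3.52 ± 0.25 FPKM (SD, n = 3) in SM. In this comparison 0.0722% of 13849 genes were called. The call was lost in 9 of 13 alternative settings and in 9 of the 12 fits that left out 1 library, with adjusted p up to 0.67, while the log2 difference stayed between -1.08 and -0.78 in all 25. The main fit did not pair libraries. Under the replicate block, which takes same-numbered libraries together, the limma adjusted p was 0.069 and Egr1 was not called.

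The other members tested in VNO also had lower mean levels in SF than in SM. Egr3 measured 0.465, 0.577 and 0.518 FPKM in SF against 1.16, 1.06 and 0.745 FPKM in SM (log2 difference -0.53, SE 0.14; limma adjusted p = 0.33). Nr4a1 measured 3.46, 2.17 and 2.87 FPKM in SF against 5.84, 3.55 and 6.10 FPKM in SM (log2 difference -0.75, SE 0.20; limma adjusted p = 0.35). Both genes had all SF libraries below all SM libraries. Fos measured 2.71, 2.01 and 3.21 FPKM in SF against 3.86, 4.65 and 4.28 FPKM in SM (log2 difference -0.62, SE 0.23; limma adjusted p = 0.52), again without overlap. Junb measured 9.65, 12.1 and 9.76 FPKM in SF against 14.1, 16.7 and 11.4 FPKM in SM (log2 difference -0.40, SE 0.16; limma adjusted p = 0.55), and its groups overlapped.

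Counted over the list, 5 of the 6 members had an unadjusted p under 0.05 in the direction of lower SF, where 7.9% of all genes did. In 4 of 6, all SF libraries lay below all SM libraries, where 13.0% of all genes did. The median log2 difference of the 6 members was -0.57, beside -0.08 over all genes. Arc, the sixth, had means of 0.640 FPKM in SF and 0.761 FPKM in SM with overlapping libraries. VNO-SF1 was the shallowest VNO library and lay 0.16 log2 units below the others at the median gene. Without it, 4 of 6 members had an unadjusted p under 0.05, in a fit for which the share of all genes was not counted. Egr1 remained called there (log2 difference -1.08, limma adjusted p = 0.00275).

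**Figure D2:**
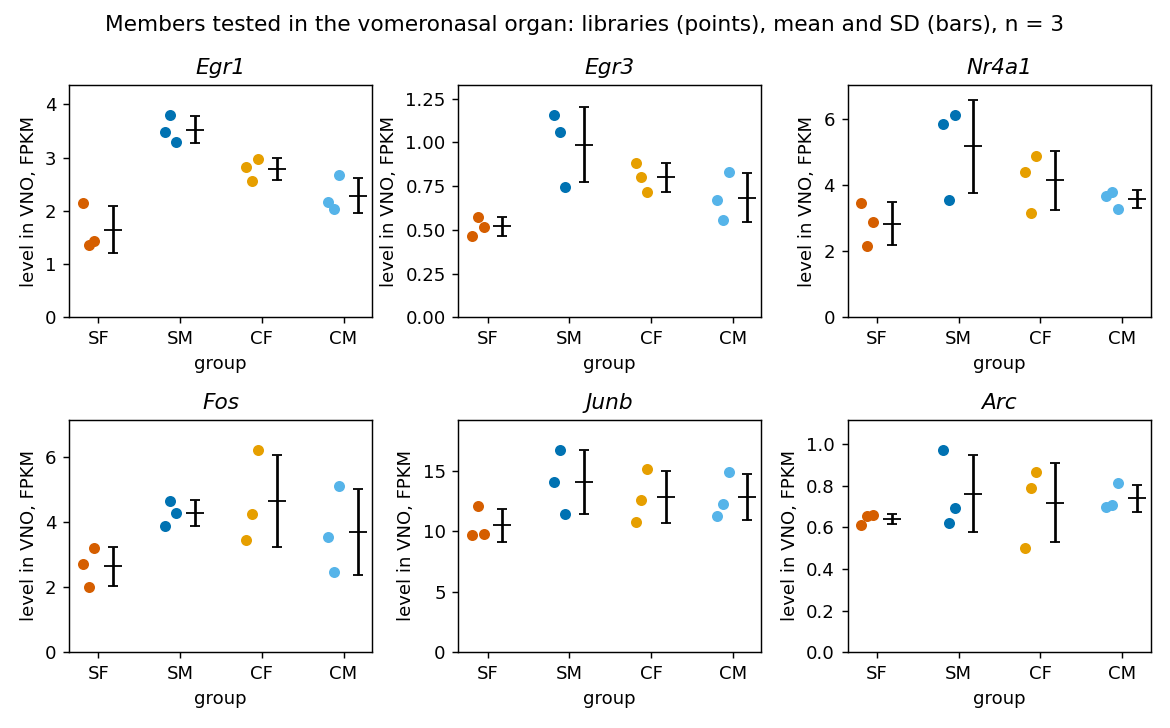
FPKM of the 6 members tested in VNO in each library of SF, SM, CF and CM (points), with the mean and SD (black bars, n = 3). For Egr1, Egr3, Nr4a1 and Fos the 3 SF points lie below all 3 SM points, and for Egr1 the CF and CM points lie between the means of SF and SM.

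Under sex-combined housing, the female and male libraries of VNO overlapped for all 6 members. For CF minus CM, 0 of 6 members were called by limma and 0 had an unadjusted p under 0.05, where 0.0433% of all genes were called. The log2 difference of Egr1 was 0.24 (95% confidence interval -0.05 to 0.53), and that of Fos was 0.30 (-0.21 to 0.82). The 6 intervals all included 0.

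The difference of these differences, (SF minus SM) minus (CF minus CM), was tested directly. No member and no gene was called (0.0% of 13849). Of the 6 members, 4 had an unadjusted p under 0.05 with a lower value, where 4.77% of all genes did. For Egr1 the difference was -1.16 (SE 0.19, 95% confidence interval -1.57 to -0.75; limma adjusted p = 0.73), and without VNO-SF1 it was called (-1.32, limma adjusted p = 0.039), as the single gene of the whole table. For Fos and Nr4a1 it was -0.92 each (SE 0.33 and 0.28), and for Egr3 -0.67 (SE 0.19), with limma adjusted p of 0.89 for all of these.

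Between housings within a sex, Egr1 levels lay in opposite directions in females and males. All 3 CF libraries lay above all 3 SF libraries (log2 difference 0.63, SE 0.13; limma adjusted p = 0.36), and all 3 CM libraries lay below all 3 SM libraries (-0.53, SE 0.13; limma adjusted p = 1.0). These comparisons share the SF and SM libraries with the one of SF with SM, and their values come from the fit without a replicate term. In the study's list of RNA integrity, the sex-combined VNO libraries lay below most of the sex-separated ones. The part of RNA integrity in these differences was not tested. For CF minus SF, 0 of 6 members were called (0.0% of all genes), 4 had an unadjusted p under 0.05 and a higher value (10.6% of all genes), and 3 had no overlap between groups (14.9% of all genes). Besides Egr1 these 4 were Fos (0.69, SE 0.23), Egr3 (0.35, SE 0.14) and Nr4a1 (0.48, SE 0.20), with limma adjusted p of 0.41, 0.42 and 0.43. The median of all genes was itself 0.10 higher in CF than in SF.

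For CM minus SM, 0 of 6 members were called (0.0% of all genes), and 3 had an unadjusted p under 0.05 with a lower value, where 0.888% of all genes did. They were Egr1, Egr3 (-0.32, SE 0.14) and Nr4a1 (-0.44, SE 0.20), the latter 2 with limma adjusted p of 1.0. Egr1 alone had groups without overlap, 1 of 6 members against 3.79% of all genes. Fos measured 3.53, 2.46 and 5.10 FPKM in CM and spanned the SM libraries. Junb and Arc also overlapped.

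The members under the filter in VNO showed no group apart from the rest. Egr2 ran from 0.327 to 0.449 FPKM in SF, from 0.358 to 0.609 in SM, from 0.288 to 0.438 in CF and from 0.288 to 0.597 in CM. Npas4 ran from 0.0934 to 0.235 FPKM in SF and from 0.0515 to 0.0994 in SM, on at most 14.7 estimated fragments. Fosb ran from 0.105 to 0.168 FPKM in SF and from 0.0750 to 0.194 in SM. Egr4 was above 0 in VNO-SF1 and VNO-CM3 only, on 1 estimated fragment at most.

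**Figure D3:**
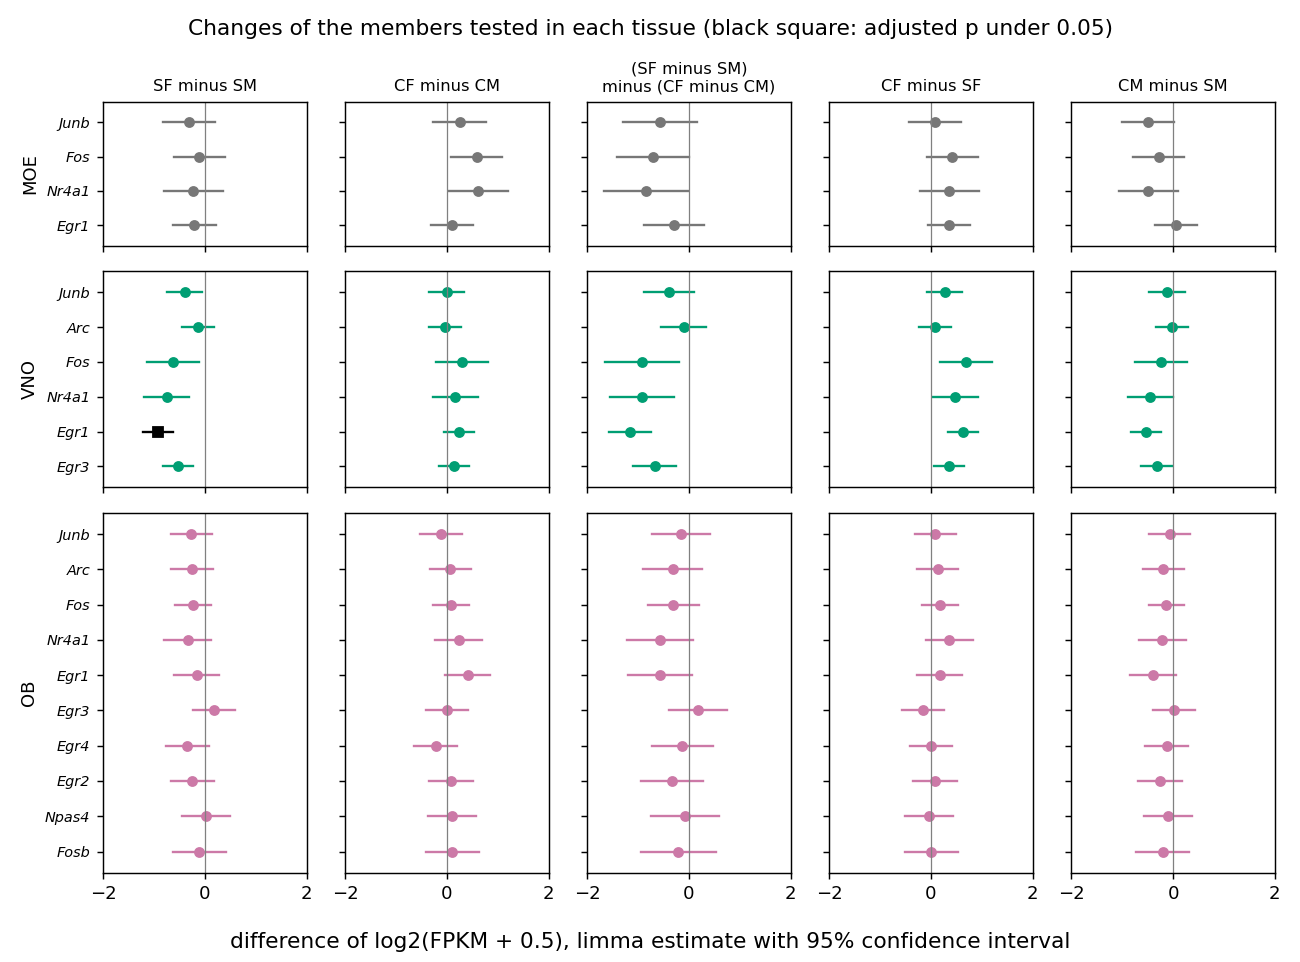
Limma estimates of the log2 difference (points) with 95% confidence intervals (lines) for the members tested in MOE, VNO and OB (rows) and the 5 comparisons (columns). The single black square is Egr1 in VNO for SF minus SM, at -0.92, and in OB the intervals of all 10 members include 0 in all 5 comparisons.

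Other genes that are induced with these members were read from lists of related genes in VNO. None of the listed genes was called in any comparison. Feedback regulators dampen the response and include phosphatases, transcript-degrading proteins and signalling inhibitors. For SF minus SM, 15 of 15 feedback regulators had a log2 difference below 0 (median -0.25). Of these, 5 had an unadjusted p under 0.05 and a lower value, where 7.9% of all genes did. Of 35 other rapidly induced genes tested, 28 lay below 0 (median -0.10) and 5 had an unadjusted p under 0.05. For upstream factors such as Srf and Creb1, 13 of 20 lay below 0 (median -0.07). For heat shock genes, which respond to tissue stress, 7 of 8 did (median -0.07). The median over all genes was -0.08, so most genes lay below 0 as well. For CF minus SF, 12 of 15 feedback regulators and 29 of 35 other rapid genes lay above 0, with medians of 0.16 and 0.10. The median of all genes was 0.10, so most genes lay above 0 there as well.

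Some lists of cell type markers were also lower in SF than in SM in VNO, most clearly that of olfactory sensory neurons. The median log2 difference was -0.42 over its 8 markers and -0.63 over the 3 erythroid markers tested. It was -0.05 over the 6 vomeronasal neuron markers and -0.007 over the 6 endothelial markers. The summed level of 8 olfactory sensory neuron markers ran from 115 to 139 FPKM in SF, below the 141 to 173 FPKM of SM and the 144 to 180 FPKM of CF, while CM at 138 to 170 FPKM overlapped SF. Omp, with a mean of 101 FPKM in VNO, made up most of this sum, while Cnga2 had a mean of 2.18 FPKM there. In MOE the means were 982.5 FPKM for Omp and 213.5 FPKM for Cnga2. The sum in VNO thus mainly follows Omp, and how much of it came from olfactory sensory neurons was not tested. All 8 of these markers were lower in SF than in SM by mean log2 level, with none called and none listed at 0 in a VNO library. Of them, 4 had an unadjusted p under 0.05 and a lower value, where 7.9% of all genes did. The log2 difference between SF and SM was -1.18 for Cnga2, -1.08 for Stoml3, -0.84 for Gnal and -0.40 for Adcy3, which act in or beside the odour transduction cascade (limma adjusted p of 0.33, 0.41, 0.39 and 0.45). The summed level of 5 macrophage and monocyte markers ran from 121 to 248 FPKM in SF and from 262 to 352 FPKM in SM, with 149 to 310 FPKM in CF and 248 to 550 FPKM in CM. Lyz2, with a mean of 247 FPKM, made up most of it. Of the 5 markers, 0 had an unadjusted p under 0.05 for SF minus SM by limma (median log2 difference -0.15, none called). For CF minus SF 3 did, all higher in CF, where 10.6% of all genes did. Bulb neuron markers were low in VNO, from 2.23 to 4.71 FPKM in SF and from 3.36 to 4.19 FPKM in SM. Gad1, which makes GABA, was called lower in SF (log2 difference -0.86, limma adjusted p = 0.030). It was 1 of only 2 bulb markers tested there, and the other, Penk, had a difference above 0. Gad2 and Slc32a1 had VNO means of 0.061 and 0.011 FPKM, so Gad1 alone does not trace bulb neurons. The vomeronasal neuron markers, a list without Omp, ran from 93.3 to 106 FPKM in SF and from 86.6 to 113 FPKM in SM. Endothelial markers ran from 17.6 to 23.4 FPKM in SF and from 22.6 to 23.7 FPKM in SM. Erythroid markers ran from 179 to 490 FPKM in SF and from 489 to 527 FPKM in SM.

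With the olfactory sensory neuron marker sum as a covariate, the log2 difference of Egr1 between SF and SM was -1.04 (limma adjusted p = 0.16), and 4 of 6 members had an unadjusted p under 0.05. With the macrophage marker sum it was -0.81 (limma adjusted p = 0.20), with 3 of 6. With the bulb neuron marker sum it was -1.01 (limma adjusted p = 0.023), with 4 of 6. Since Omp and Lyz2 dominate the first 2 sums, the mean log2 level of the markers, in which each counts alike, was also used. With that of the olfactory sensory neuron markers, the difference of Egr1 was -0.93 (limma adjusted p = 0.67) with 4 of 6 members at an unadjusted p under 0.05, and with that of the macrophage markers -0.81 (limma adjusted p = 0.36) with 3 of 6. All of these covariates but the bulb marker sum were added after the data had been seen. The share of all genes with an unadjusted p under 0.05 was not counted for the fits with covariates. The part of erythroid content in the differences was not tested.

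In OB, where the members were highest, no member passed a threshold between groups. No member was called for SF minus SM (0.0391% of 12795 genes called), CF minus CM (0.0469%), the difference of these differences (0.00782%), CF minus SF (0.00782%) or CM minus SM (0.0%), and none had an unadjusted p under 0.05 in any of the 5 limma comparisons. With a replicate block, 2 had an unadjusted p under 0.05 for SF minus SM, CF minus CM and the difference of differences each. It was 1 for CF minus SF and 3 for CM minus SM, with none called. The share of all genes under that threshold was not counted for the replicate block. The 95% confidence intervals all included 0 and bounded SF minus SM between -0.80 and 0.58 and CM minus SM between -0.84 and 0.43 on the log2 scale. Fos was the single member of 10 with groups that did not overlap, at 12.1, 11.1 and 12.4 FPKM in SF against 14.5, 12.8 and 14.7 FPKM in SM, where 7.95% of all genes had SF wholly below SM. Its limma estimate was -0.23 (95% confidence interval -0.58 to 0.12). Egr3 was the member with the largest positive estimate for that comparison, at 2.35, 2.89 and 3.88 FPKM in SF against 2.83, 2.29 and 2.64 FPKM in SM, with overlapping groups. Egr4, which was near 0 in the other tissues, measured 3.09, 1.78 and 1.64 FPKM in SF and 2.96, 2.37 and 3.12 FPKM in SM, also with overlap. Npas4 measured 2.07, 1.61 and 2.01 FPKM in SF and 1.76, 1.58 and 2.26 FPKM in SM. Of the related lists, no gene was called in OB. All 20 upstream factors had a log2 difference below 0 for SF minus SM (median -0.12), 0 of 20 with an unadjusted p under 0.05. The median over all genes was -0.07, so most genes lay below 0 as well. For the 13 feedback regulators tested there, 7 lay below 0.

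The spread in OB lay between the libraries of a group and went with the replicate number. By the median over members, replicate 2 was the lowest library of each group. It stood at -0.22 (SF), -0.11 (SM), -0.26 (CF) and -0.51 (CM) log2 units from the median library. At the median of all genes tested, the same libraries stood at 0.09 (SF), 0.12 (SM), 0.06 (CF) and -0.01 (CM). In SF, SM and CF that was the highest of the group, and so were the summed bulb neuron markers (686, 731 and 648 FPKM). What a replicate number marks is not given in the labels. OB-CM2 had the lowest level of 8 of the 10 members, with a median of 0.51 log2 units below the median library, while all genes together lay only 0.01 units below. There, Arc was at 15.9 FPKM against 24.8 and 30.7 FPKM in the other CM libraries. Egr1 was at 4.37 FPKM against 7.42 and 6.81, and Nr4a1 at 8.55 FPKM against 13.5 and 14.2. The summed bulb neuron markers ran from 601 to 703 FPKM over the CM libraries and from 634 to 731 FPKM over the SM libraries, and their part was not tested. OB-CF2 was among the lowest 2 libraries for 6 of 10 members. OB-SM3 was above the median library for 9 of 10 members, and so were OB-SM1 and OB-CM1.

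**Figure D4:**
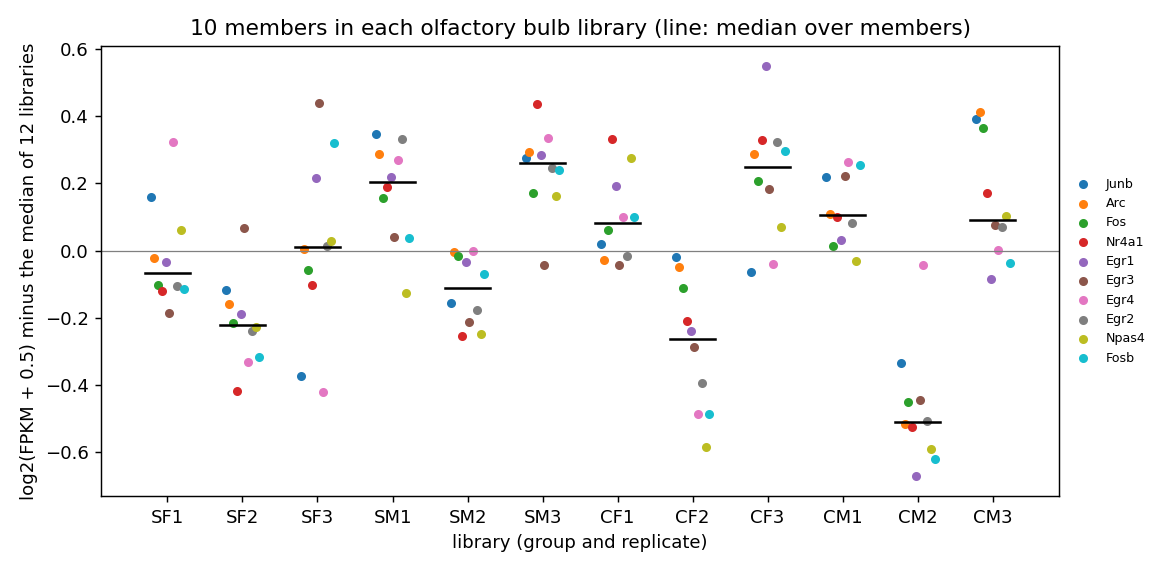
Deviation of each of the 10 members (coloured points) from its median over the 12 OB libraries, on the log2(FPKM + 0.5) scale, with the median over members as a black line. OB-CM2 lies lowest, at -0.51, and the other CM libraries lie at or above 0. In each group, the library of replicate 2 has the lowest black line.

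Across the 12 OB libraries, the members varied together. The median Pearson r over their 45 pairs was 0.68, 44 pairs were above 0, and the median over all pairs of genes tested was 0.33. The highest value was 0.97 for Fos with Arc, followed by 0.89 for Fosb with Egr1 and for Egr1 with Egr2. The lowest was -0.08 for Egr3 with Egr4. In VNO the median over 15 pairs was 0.53 against 0.16 for all genes, with 0.81 for Egr1 with Egr3 at the top. In MOE the 6 pairs had a median of 0.53, no higher than the 0.55 of all genes. These values describe 12 libraries that share their groups and depth, and in OB also the low level of the members in replicate 2 of each group.

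In OB without OB-CM2, the median log2 difference of the members between CM and SM changed from -0.16 to 0.05. A fit that weights libraries by how closely their genes follow the fit gave OB-CM2 a weight of 5.59 and OB-SM3 one of 6.2, and called 9 of 10 members lower in CM than in SM, where 24.6% of all genes were called. The same fit called 2 members in OB for SF minus SM (11.0% of all genes), 1 for CF minus CM (5.38%) and 1 for the difference of these differences (3.23%).

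In MOE, Fos, Nr4a1 and Egr1 had their highest group mean in CF, as did Egr2, Egr3 and Npas4, which were under the filter. Junb and Arc had theirs in SM, and Fosb and Egr4 in SF. Egr2 ran from 0.201 to 0.231 FPKM in CF, above all other MOE libraries, on at most 8.02 estimated fragments. Arc, also untested, ran from 0.270 to 0.407 FPKM in CM, below the 0.485 to 0.586 FPKM of SM. Fos measured 2.22, 2.12 and 2.04 FPKM in CF against 1.36, 1.03 and 1.35 FPKM in CM (log2 difference 0.59, SE 0.24; limma adjusted p = 1.0). Nr4a1 measured 2.97, 2.18 and 2.77 FPKM in CF against 1.69, 1.11 and 1.88 FPKM in CM (0.62, SE 0.28; limma adjusted p = 1.0). For both genes the CF libraries lay above all CM libraries, 2 of 4 members where 3.82% of all genes did, and 2 of 4 had an unadjusted p under 0.05 with a higher value, where 1.5% of all genes did. The median of all genes was 0.10 higher in CF. No member had an unadjusted p under 0.05 after quantile normalization or upper quartile scaling, with the bulb neuron marker sum as a covariate, without MOE-CF1 or without MOE-CM2.

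In the sex-separated groups of MOE, the SF libraries spread widely. Fos measured 1.49, 0.730 and 2.57 FPKM in SF and 1.69, 1.68 and 1.49 FPKM in SM. Junb measured 7.87, 5.47 and 12.8 FPKM in SF and 11.6, 10.8 and 8.85 FPKM in SM. Egr1 measured 0.640, 0.358 and 0.536 FPKM in SF and 0.937, 0.554 and 0.52 FPKM in SM. MOE-SF2 was the lowest of 12 libraries for 3 of the 4 members and MOE-SF3 the highest for 3. At the median of all genes tested, these libraries stood at -0.15 and 0.12 log2 units from the median library, in the same directions. Called members numbered 0 of 4 for SF minus SM (0.102% of 13757 genes), CF minus CM (0.0436%), the difference of these differences (0.0363%), CF minus SF (0.0509%) and CM minus SM (0.0654%). The difference of differences had an unadjusted p under 0.05 and a lower value for Nr4a1 alone (-0.84, SE 0.39; limma adjusted p = 1.0), 1 of 4 members where 4.19% of all genes did. No member passed that threshold in 9 of the 12 fits that left out 1 library, nor with either other scaling, a pseudocount of 1 or the bulb neuron marker sum as a covariate. Without MOE-SF3 there were 3, in a fit for which the share of all genes was not counted. The weighted fit, in which MOE-CM3 had a weight of 0.0503, called 2 of 4 there, where 17.6% of all genes were called. For CM minus SM, Junb, Nr4a1 and Fos had all CM libraries below all SM libraries (3 of 4 members, 13.0% of all genes). None had an unadjusted p under 0.05, and the median of all genes was 0.17 log2 units lower in CM.

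Genes outside the list whose levels most resembled the mean pattern of the members tested were found by Pearson r over the 12 libraries of a tissue. In VNO they were Ier3 (0.93), Gm15706 (0.91), Foxj2 (0.86), Kdm5b (0.86) and Errfi1 (0.86). Ier3 is itself a rapidly induced gene and Errfi1 a feedback inhibitor of the EGF receptor. In OB they were Ccn1 (0.86), Sik1 (0.85), Astn2 (0.85), Ahdc1 (0.84) and Calhm2 (0.83). Ccn1 and Sik1 are rapidly induced genes that were on the related list. In MOE they were Tle3 (0.93), Gpr153 (0.92), Mfhas1 (0.91), Rhebl1 (0.89) and Dpp9 (0.88), none of which was on a related list.

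By locus in build mm9, as the tables list them, Arc lay on chromosome 15 from 74499511 to 74503000, Egr3 on chromosome 14 from 70477252 to 70482420 and Egr1 on chromosome 18 from 35020861 to 35024610. Of the members, Arc, Egr2, Egr3 and Fosb had more than 1 RefSeq transcript listed, and their values are sums.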

How the data were processed

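Total RNA was measured by stranded paired-end sequencing (50 bases per end) in 36 libraries, 3 per group. The deposited FPKM values and their 95% confidence limits were made by the authors, who merged 2 lanes, aligned to mm9 with TopHat2 2.1.0 and quantified RefSeq transcripts with Cufflinks 2.2.1.0 (versions per the submitters' processing notes). Whether strand was used in quantification is not given in the sources used here. FPKM was summed by symbol. The fragments behind a value were estimated by dividing FPKM by its standard error and squaring, with a floor of 3, and cover counting error only.

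Each tissue was fitted with limma 3.58.1 in R 4.3.3 (trended eBayes) over 12 libraries and 4 groups, on log2(FPKM + 0.5), for genes with a mean of at least 0.5 FPKM. Fold changes on this scale understate changes of low genes. The procedure was tested on simulated data. Members, related lists and markers were chosen with earlier results of these data known, and all 10 members are named. A fold change is given for members with an unadjusted p under 0.05, and for a few others chosen after their values were seen. From the related lists, called genes were to be named, and the 5 genes most like the members in each tissue are named. Marker genes and list examples were named after their values were seen. Alternatives were a pseudocount of 0.1 or 1, testing without the filter, 2 other scalings (quantile, upper quartile), weighted libraries, a replicate block, only the libraries compared, marker levels as covariates and each library left out. The labels do not say what a replicate number marks. Over all genes tested, same-numbered VNO libraries deviated together for SF with SM (r 0.13 to 0.20) and SF with CF (0.10 to 0.27). No other pair of groups in any tissue had r over 0.1 in all 3 pairs. The main fit held no replicate term, and pairing entered only through the replicate block. In OB, the members were lowest by their median in replicate 2 of each group, which these correlations over all genes do not show. At the median gene, replicate 2 was instead the highest library of SF, SM and CF. Summaries used Python 3.11.15 with pandas 2.3.3, and figures matplotlib 3.10.9.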

Additional observations from a re-analysis of the deposited data

Results flagged for a closer look

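In VNO, Egr1 was higher in all 3 CF libraries than in all 3 SF libraries and lower in all 3 CM libraries than in all 3 SM libraries, so the housings differed in opposite directions in females and males. The test of the difference itself gave -1.16 on the log2 scale (SE 0.19; limma adjusted p = 0.73), and -1.32 (adjusted p = 0.039) without VNO-SF1. The cause was not tested. No other member tested showed such opposite separation in any tissue.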

How the results depend on the processing

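The call of Egr1 for SF minus SM in VNO (1 member) became 0 with no filter, quantile normalization, upper quartile scaling, the replicate block, only the libraries compared, or either marker measure (sum or mean log2 level) of olfactory sensory neurons or macrophages as a covariate, and ranged from 0 to 1 when 1 library was left out. Its log2 difference kept its sign throughout. The cause was not tested, except that dropping the other libraries leaves fewer samples. Library weights raised the members called to 2 in MOE for the difference of differences, and in OB to 2 for SF minus SM, 1 for CF minus CM, 1 for the difference of differences and 9 for CM minus SM. Leaving out 1 library gave 0 to 1 calls for the difference of differences in VNO. Without a filter, which adds 4 members near the floor, the median log2 change of members in VNO was -0.30 for SF minus SM, -0.26 for the difference of differences and 0.18 for CF minus SF, and a pseudocount of 0.1 made the difference of differences -1.01. With the mean log2 level of macrophage markers as a covariate it was -0.58. In OB, library weights moved the median to 0.50 for CF minus CM, -0.71 for the difference of differences and -0.60 for CM minus SM. No other median moved by more than the spread between libraries, and no log2 change of a member named with its error reversed. In OB the median of the members for CF minus CM changed sign to -0.05 without CF3 and to -0.14 without CM2, and for CF minus SF to -0.04 without CF3. The replicate block changed no call other than that of Egr1 for SF minus SM in VNO. Values under the floor of 3 estimated fragments included those of Egr4 in all 12 libraries of MOE and of VNO. In MOE they also included those of Fosb in 10 and Npas4 in 7 of 12. The part of depth in these low values was not tested.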
